A study of Mus musculus with 19 samples.

Results

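The 6 genes described here are *Trp53*, which encodes the transcription factor p53, and 5 genes whose protein products act directly on p53 or on its main inhibitor, *Mdm2*, *Mdm4*, *Usp7*, *Usp28* and *Ppm1d*. They were chosen by name, as p53 and its known direct regulators, and all 6 were found among the 51912 genes of the count data. Cortex of single E13.5 mouse embryos on a mixed C57BL/6 and 129 background was used for RNA-seq, with 7 ctrl, 5 cKO-E and 7 dKO-E embryos and 1 library each. The cKO-E embryos carried *Emx1* Cre/+ together with *Ino80* fl/fl and lacked the ATPase of the INO80 chromatin remodeler in the *Emx1* lineage. The dKO-E embryos carried *Trp53* fl/fl in addition to both of these alleles and lacked p53 in that lineage as well. The ctrl embryos are labelled only as controls, without alleles. *Emx1* Cre recombines in cortical neural progenitor cells and their progeny, so interneurons, microglia and blood vessels of the dissected cortex keep both genes. The comparisons ask whether the transcripts of p53 and its regulators differ where *Ino80* is lost and where *Trp53* is lost with it.

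p53 is made continuously and degraded continuously, and its activity is set largely at the level of the protein. MDM2, a ubiquitin ligase, marks p53 for degradation and is itself a transcriptional target of p53, which closes a negative feedback loop. MDM4 is a relative of MDM2 that binds p53 and blocks its activation domain. USP7 is a deubiquitinase that removes ubiquitin from p53 and from MDM2, USP28 is a deubiquitinase that acts with 53BP1 on p53 after mitotic delay, and PPM1D, also called WIP1, is a p53-induced phosphatase that removes activating phosphates from p53 and its kinases. Loss of *Mdm2* or *Mdm4* from the developing brain is known to activate p53 and to cause death of neural progenitors.

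The feedback loop is written partly in promoters, so the RefSeq promoter windows of the 6 genes (GRCm38.p6, 250 bases before to 50 bases after a RefSeq start, 7 windows since *Mdm4* has 2) were searched for the 10-base p53 half-site consensus, a palindrome that reads the same on both strands. A half-site lay in the windows of *Mdm2*, *Ppm1d* and *Trp53*, and none lay in those of *Mdm4*, *Usp7* and *Usp28*. The RefSeq start of *Usp7* (8738342) lies 54 kb inside the GENCODE gene, whose outer start at 8792308 was not searched, and the start of 1 *Mdm4* window lies 5145 bases inside that gene. Of all 32851 promoter windows, 8.36% held at least 1 half-site, as did 9.55% of genes with a window. The 3 stretches of 60 bases around the matches are shown, 5′ to 3′ on the strand of the gene with the half-site in capitals, because *Mdm2* and *Ppm1d* are genes that p53 induces.
Mdm2 (chr10:117710910-117710969, minus strand): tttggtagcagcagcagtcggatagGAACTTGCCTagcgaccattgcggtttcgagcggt
Ppm1d (chr11:85311097-85311156, plus strand): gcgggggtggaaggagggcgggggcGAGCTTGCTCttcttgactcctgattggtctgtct
Trp53 (chr11:69580259-69580318, plus strand): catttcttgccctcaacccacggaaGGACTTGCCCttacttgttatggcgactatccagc

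The half-sites ended 176 bases before the RefSeq start in *Mdm2*, 122 bases before it in *Ppm1d*, where RefSeq starts 10 bases inside the GENCODE gene, and 65 bases before it in *Trp53*. None of the 7 windows held a full site, defined as 2 half-sites with a spacer of at most 13 bases, and 24 of all windows did. In the same search, 6 of 14 genes with a window from a list of known p53 targets held a half-site. A match describes letters in a window and not binding, and p53 sites of *Mdm2* known from other work lie in its first intron, outside the window.

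The shallowest library held 820915 counts on genes and the deepest 8095810 (median 2952788, with 2 libraries, cKO-E replicate D and dKO-E replicate G, under 1000000), after duplicates had been removed by molecular identifier. Levels are given as CPM, counts scaled to a common library size with edgeR's TMM factors. Group means are followed by the SD over the 7 ctrl, 5 cKO-E or 7 dKO-E embryos. Tests are edgeR's quasi-likelihood test, and genes were called at an adjusted p below 0.05 over all genes tested. At gene level the counts of *Ino80* include reads outside the deleted exons and do not show its deletion. *Ino80* had 122 ± 8.73 CPM in ctrl, 167 ± 14.8 in cKO-E and 187 ± 13.8 in dKO-E. It was called higher than in ctrl in both mutants (log2 fold change 0.48 and 0.62, adjusted p = 7.92e-05 and 8.84e-07). The cause of this rise was not tested. Of 12 markers of cortical progenitors and neurons, 10 had counts in every embryo, and *Sox2* and *Tubb3* were listed at 0 in all 19. Summed over these 12, the level was 1518 to 1991 CPM in ctrl, 1387 to 1718 in cKO-E and 1203 to 1707 in dKO-E, with medians of 1790, 1570 and 1371. Of the 10 tested, 5 were called lower in cKO-E than in ctrl and 2 in dKO-E. These are 50% and 20%, beside 17.2% and 15.5% of all genes called in either direction. Summed over 12 microglial genes, the level was 6.49 to 17.0 CPM in ctrl, 32.3 to 41.1 in cKO-E and 5.89 to 11.8 in dKO-E. Summed over 10 interneuron genes, it was 63.5 to 144 CPM in ctrl, 117 to 172 in cKO-E and 85.0 to 121 in dKO-E. Among 8 meningeal and mesenchymal genes the sum reached 73.0 CPM in 1 ctrl embryo and 72.2 in 1 dKO-E embryo and was at most 7.47 in cKO-E. The labels put 4 ctrl, 3 cKO-E and 4 dKO-E embryos in sequencing batch 1, 3, 2 and 2 in batch 2, and 1 dKO-E embryo in batch 3. Females and males numbered 4 and 3 in ctrl, 4 and 1 in cKO-E and 2 and 5 in dKO-E. Whether embryos with the same label came from separate pregnancies is given only by the litter. The 7 ctrl embryos came from 4 litters, the 5 cKO-E embryos from 5 and the 7 dKO-E embryos from 2. Litter 2 held 4 of the dKO-E embryos and no embryo of another group. The tests treat littermates as independent embryos unless litter is a block, and p values measure the spread between these embryos. In bulk tissue, fewer cells of a type and less RNA per cell cannot be told apart.

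**Figure D1:**
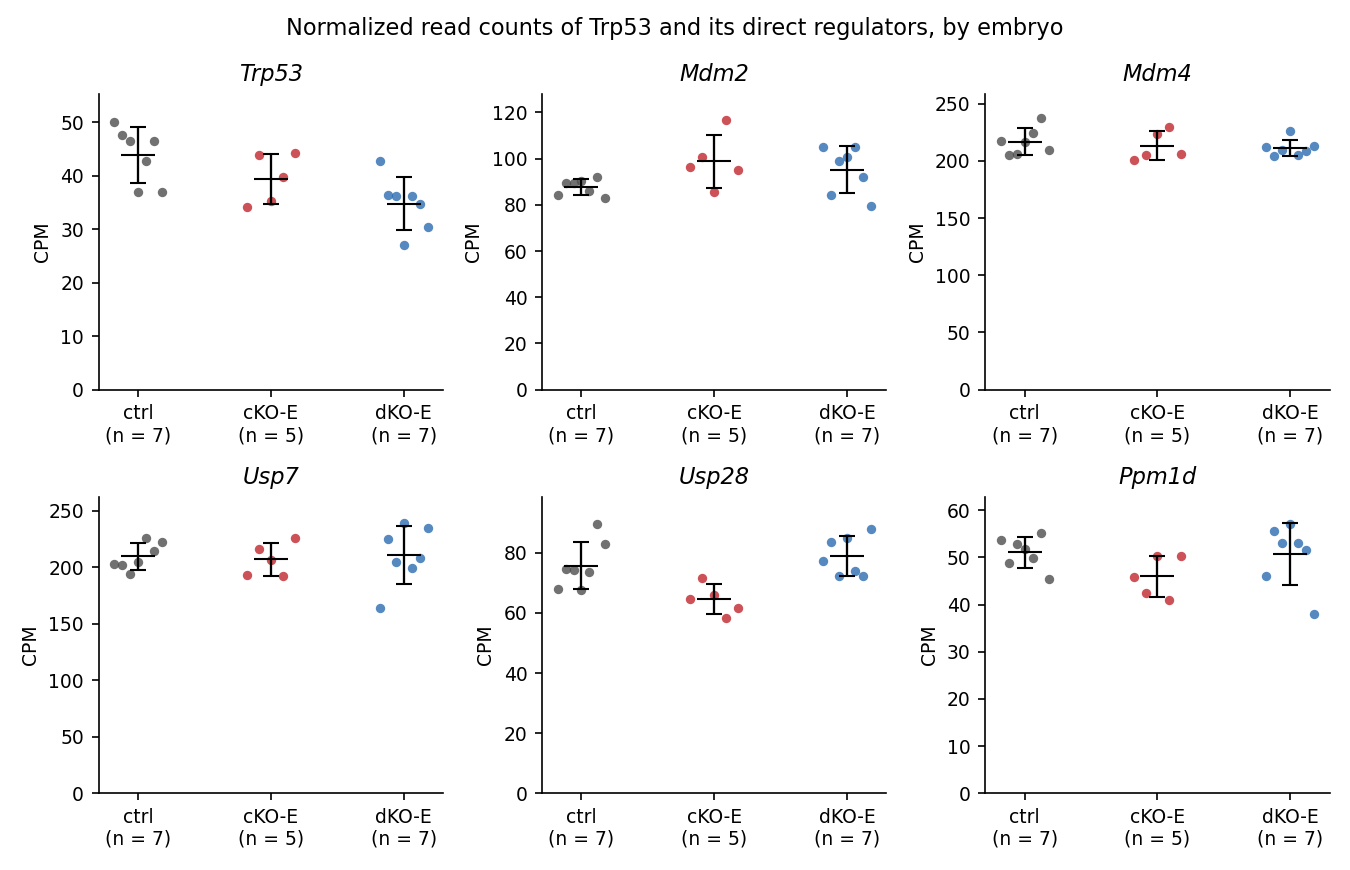
Each point is 1 embryo, the vertical axis is the level in CPM from 0, and the bar is the group mean with 1 SD. For *Trp53* the dKO-E points lie lowest, with 6 of 7 below every ctrl embryo, and for *Usp28* every dKO-E point lies above every cKO-E point.

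*Trp53* transcript was lower in dKO-E than in ctrl and did not pass the test in cKO-E. *Trp53* (ENSMUSG00000059552.13) lies on chromosome 11 of GRCm38 from 69580359 to 69591873, on the plus strand. In the 7 ctrl embryos its level had a minimum of 36.9 CPM, a median of 46.5 and a maximum of 50.1. The 5 cKO-E embryos had 34.2, 43.9, 35.2, 39.8 and 44.2 CPM. In the 7 dKO-E embryos the minimum was 27.0 CPM, the median 36.2 and the maximum 42.7. The cKO-E embryos thus overlapped the ctrl embryos, with 2 of 5 below all of them, and 6 of 7 dKO-E embryos lay below every ctrl embryo, a count that rests on the scaling, since it was 4 of 7 with TMM factors computed over all genes. These levels rest on 28 to 293 counts per embryo. Against ctrl, *Trp53* in dKO-E gave log2 fold change -0.36 (SE 0.10, 95% interval -0.57 to -0.15, adjusted p = 0.0196), a level 0.779 times that of ctrl. An exact two-sided permutation test of the group means of log2 CPM gave p = 0.00408. The group means were 43.9 ± 5.21 CPM in ctrl and 34.8 ± 4.96 in dKO-E. In cKO-E, at 39.5 ± 4.68 CPM, the log2 fold change against ctrl was -0.17 (SE 0.10, 95% interval -0.38 to 0.05, adjusted p = 0.3), and dKO-E differed from cKO-E by -0.18 (SE 0.11, 95% interval -0.42 to 0.06, adjusted p = 0.322). In cKO-E against ctrl the value was -0.05 (SE 0.11, adjusted p = 0.82) with litter as a block, -0.27 (SE 0.13, adjusted p = 0.172) within sequencing batch 1 and 0.02 (SE 0.17, adjusted p = 0.974) within batch 2. Between the mutants it was -0.08 (SE 0.12, adjusted p = 0.714) with sex as a covariate. The summed cortical markers were lowest in dKO-E by their medians (1371 CPM, against 1790 in ctrl and 1570 in cKO-E). Taken gene by gene they were lower in cKO-E: the median log2 fold change of the 10 tested was -0.33 there and -0.20 in dKO-E, each against ctrl. In dKO-E against cKO-E it was 0.18, with 7 of the 10 above 0 and 3 below. The part of these markers in the difference of *Trp53* was not tested.

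The *Trp53* fl/fl allele removes exons 2 to 10, so a shortened transcript of the deleted allele can still be counted. In the 11-exon transcript Trp53-203, 680 of 1771 bases lie outside those exons (38.4%), and of its 1170 coding bases 79 do (6.75%). The counts are sums over the whole gene, so reads from the exons that remain and reads from cells that did not recombine cannot be told apart. Within sequencing batch 1 alone the log2 fold change of *Trp53* in dKO-E against ctrl was -0.39 (adjusted p = 0.0735), and within batch 2 alone it was -0.34 (adjusted p = 0.344). With litter as a block it was -0.38 (adjusted p = 0.115), in a fit where litter 1 alone held both genotypes, with 2 ctrl and 3 dKO-E embryos. Scaled to total counts it was -0.26 (adjusted p = 0.0631).

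*Wrap53*, the gene that starts next to *Trp53* on the other strand and encodes a protein of the telomerase complex, ends at base 69580255 and shares no annotated base with it. It had 15.6 ± 2.36 CPM in ctrl, 16.4 ± 2.96 in cKO-E and 19.4 ± 2.41 in dKO-E. Its log2 fold change in dKO-E against ctrl was 0.31 (SE 0.11, 95% interval 0.07 to 0.55, adjusted p = 0.0728), which did not pass the test.

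*Mdm2* (ENSMUSG00000020184.15, chromosome 10 from 117688875 to 117710758, minus strand) was not called in any comparison. In ctrl its level had a minimum of 82.8 CPM, a median of 89.3 and a maximum of 92.1. The 5 cKO-E embryos had 96.3, 101, 85.5, 117 and 95.1 CPM, and 4 of them lay above every ctrl embryo. The highest of them, replicate D, was the shallowest library, with 94 counts on the gene, and without it the log2 fold change against ctrl was 0.10 (adjusted p = 0.31). In dKO-E the minimum was 79.4 CPM, the median 99.0 and the maximum 105, with 5 of 7 embryos above every ctrl embryo and 1 below. The embryo below was replicate G, the other library under 1000000 counts, with 73 counts on the gene. Both mutant groups spread more widely than ctrl, at 98.9 ± 11.5 CPM and 95.1 ± 10.1 against 87.7 ± 3.42. The ctrl libraries held at least 131 counts on the gene, and the part of depth in the wider spread was not tested.

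The log2 fold change of *Mdm2* in cKO-E against ctrl was 0.15 (SE 0.07, 95% interval 0.01 to 0.29, adjusted p = 0.149), a level 1.11 times that of ctrl. The unadjusted p of edgeR's quasi-likelihood test was 0.0419, and the exact permutation test gave p = 0.0164. With litter as a block the value was 0.08 (SE 0.08, adjusted p = 0.601, unadjusted p = 0.356 by edgeR). Within sequencing batch 1 it was 0.09 (adjusted p = 0.534) and within batch 2 it was 0.23 (adjusted p = 0.349). In dKO-E against ctrl it was 0.11 (SE 0.06, 95% interval -0.02 to 0.24, adjusted p = 0.268), with 0.12 in batch 1 and 0.0038 in batch 2, and in dKO-E against cKO-E -0.03 (SE 0.08, 95% interval -0.20 to 0.14, adjusted p = 0.872). The value in dKO-E against ctrl passed the test only when libraries were scaled to total counts, at 0.20 (adjusted p = 0.0284). That scaling moved the median log2 fold change of all genes from 0.01 to 0.10. The counts do not separate transcripts that start at the first and the intronic promoter of *Mdm2*.

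*Mdm4* (ENSMUSG00000054387.13, chromosome 1 from 132959484 to 133030561, minus strand) had nearly the same level in the 3 groups. Its level ranged from 206 to 238 CPM in ctrl with a median of 217. The 5 cKO-E embryos had 201, 205, 224, 230 and 206 CPM, and the dKO-E embryos ranged from 204 to 226 with a median of 209. The groups overlapped throughout. The log2 fold changes were -0.03 (95% interval -0.15 to 0.09) in cKO-E against ctrl, -0.05 (95% interval -0.15 to 0.06) in dKO-E against ctrl and -0.01 (95% interval -0.12 to 0.11) in dKO-E against cKO-E, with adjusted p = 0.786, 0.577 and 0.967. The pseudogene Gm29257 lies inside *Mdm4* on the other strand without sharing exon bases and had at most 4 counts in an embryo.

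Since *Mdm2*, *Mdm4* and *Trp53* were measured in the same library, their ratio per exon length does not depend on the scaling of the library. The ratio of *Mdm2* to *Trp53* was 1.61 ± 0.199 in ctrl, 2.01 ± 0.268 in cKO-E and 2.21 ± 0.368 in dKO-E. It was above every ctrl embryo in 2 of 5 cKO-E and 6 of 7 dKO-E embryos. The ratio of *Mdm2* to *Mdm4* was 1.18 ± 0.0657 in ctrl, 1.35 ± 0.143 in cKO-E and 1.31 ± 0.139 in dKO-E. It was above every ctrl embryo in 4 of 5 cKO-E and 5 of 7 dKO-E embryos, and below every ctrl embryo in 1 of each group. The ratio of *Ppm1d* to *Trp53* was 1.496 ± 0.153 in ctrl, 1.51 ± 0.251 in cKO-E and 1.89 ± 0.411 in dKO-E. These ratios restate the levels above and were not tested, and in dKO-E the deleted gene is their denominator where *Trp53* is used. Their absolute size rests on the annotated exon lengths, which are the same in each group.

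**Figure D2:**
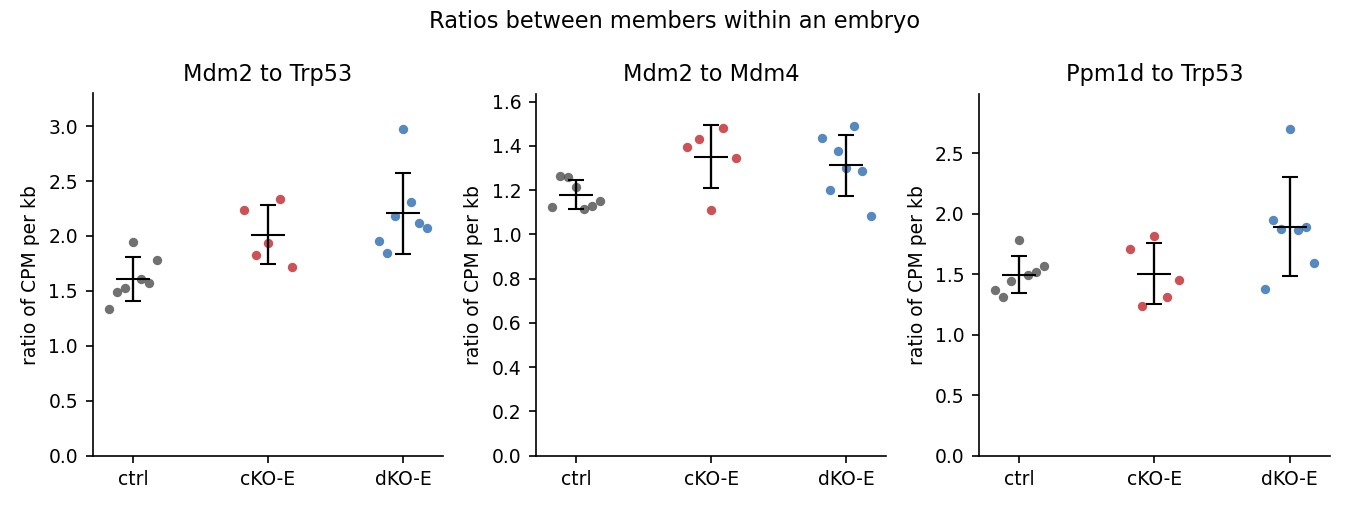
Each point is the ratio of 2 length-scaled levels in 1 embryo, on axes from 0, with the group mean and 1 SD. The *Mdm2* to *Trp53* ratio has means of 1.61, 2.01 and 2.21 in ctrl, cKO-E and dKO-E.

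The deubiquitinases differed from each other. *Usp28* (ENSMUSG00000032267.8, chromosome 9 from 48985375 to 49042517, plus strand) was lower in cKO-E than in dKO-E. In ctrl its level had a minimum of 67.7 CPM, a median of 74.2 and a maximum of 89.8. The 5 cKO-E embryos had 64.7, 71.7, 66.0, 58.4 and 61.8 CPM, and 4 of them lay below every ctrl embryo. The dKO-E embryos had a minimum of 72.2 CPM, a median of 77.3 and a maximum of 88.1, so that all 7 lay above all 5 cKO-E embryos and within the range of ctrl. With TMM factors over all genes 5 of the 7 lay above all cKO-E embryos. Groups that did not overlap, with dKO-E the higher, were found for 2.43% of the 11746 genes tested.

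The log2 fold change of *Usp28* in dKO-E against cKO-E was 0.27 (SE 0.08, 95% interval 0.11 to 0.43, adjusted p = 0.0218), a level 1.20 times that of cKO-E. The exact permutation test gave p = 0.00253, the smallest that 7 against 5 embryos allow. It treats embryos as independent, while the 7 dKO-E embryos came from 2 litters. The mutant groups share no litter, so genotype and litter cannot be told apart in this comparison. In cKO-E against ctrl the value was -0.20 (SE 0.08, 95% interval -0.37 to -0.04, adjusted p = 0.088, unadjusted p = 0.0194 by edgeR), with -0.09 in batch 1 and -0.44 in batch 2, and in dKO-E against ctrl 0.05 (SE 0.07, 95% interval -0.10 to 0.20, adjusted p = 0.682). The call was lost when cKO-E replicate A, C or E or dKO-E replicate D was left out, with log2 fold changes of 0.26, 0.27, 0.25 and 0.24 and adjusted p between 0.0514 and 0.0533. It was 0.23 (adjusted p = 0.067) without the libraries under 1000000 counts, an alternative chosen after the data were seen. Within sequencing batch 1 it was 0.24 (adjusted p = 0.143) and within batch 2 it was 0.35 (adjusted p = 0.389). Markers of other cell types moved beside it: the microglial sum was 32.3 to 41.1 CPM in cKO-E and 5.89 to 11.8 in dKO-E. The interneuron sums were 117 to 172 and 85.0 to 121 CPM. Of the 6 interneuron genes tested (10 listed), 4 were called lower in dKO-E, where 9.42% of all genes were. In dKO-E against ctrl 5 interneuron genes passed the filter on low counts, so not all of the 6 passed without cKO-E. Among cortical genes *Emx1* was higher in dKO-E compared with cKO-E (log2 fold change 0.45, SE 0.10, adjusted p = 0.00536) and *Tbr1*, a gene of early-born neurons, was lower (-0.48, SE 0.09, adjusted p = 0.00131). Their part in the difference of *Usp28* was not tested.

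*Usp7* (ENSMUSG00000022710.17, chromosome 16 from 8689595 to 8792308, minus strand) did not differ between groups by the test. Its level ranged from 194 to 226 CPM in ctrl with a median of 204. The 5 cKO-E embryos had 193, 216, 207, 193 and 226 CPM. The dKO-E embryos ranged from 164 to 239 CPM with a median of 208, the widest spread of the 3 groups, with 2 embryos above and 1 below every ctrl embryo. The log2 fold changes were -0.01 (95% interval -0.13 to 0.12) in cKO-E, 0.00 (95% interval -0.15 to 0.15) in dKO-E and 0.02 (95% interval -0.15 to 0.19) between the mutants, with adjusted p = 0.967, 0.998 and 0.93. A small nuclear RNA gene, Gm25805, lies inside *Usp7* and was listed at 0.

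*Ppm1d* (ENSMUSG00000020525.17, chromosome 11 from 85311244 to 85347066, plus strand) was not called in any comparison. In ctrl its level had a minimum of 45.3 CPM, a median of 51.7 and a maximum of 55.2. The 5 cKO-E embryos had 45.8, 42.5, 50.3, 41.0 and 50.3 CPM, and 2 of them lay below every ctrl embryo. In dKO-E the minimum was 38.1 CPM, the median 52.98 and the maximum 57.2. The log2 fold change was -0.14 (SE 0.08, 95% interval -0.30 to 0.02, adjusted p = 0.241) in cKO-E against ctrl, 0.01 (SE 0.08, 95% interval -0.16 to 0.17, adjusted p = 0.973) in dKO-E against ctrl and 0.16 (SE 0.09, 95% interval -0.04 to 0.35, adjusted p = 0.304) in dKO-E against cKO-E.

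Counted over the 6 genes, 0 were called in cKO-E against ctrl, where 17.2% of the 11660 genes tested were called. Of the 6, 2 (*Mdm2* and *Usp28*) had an unadjusted p below 0.05 in edgeR's quasi-likelihood test and 1 had in each of edgeR's likelihood-ratio test and DESeq2, which called 0 as well. In dKO-E against ctrl 1 gene was called, *Trp53*, lower, where 15.5% of 11381 genes were called. In dKO-E against cKO-E 1 gene was called, *Usp28*, higher, where 15% of 11746 genes were called. With 6 genes, 0 or 1 call is close to these shares. None of the 18 comparisons of a gene reached an adjusted p of 0.001, the false discovery rate of the study, which 3.38%, 2.58% and 3.13% of all genes reached. The comparisons share groups of embryos, so their values are not independent.

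**Figure D3:**
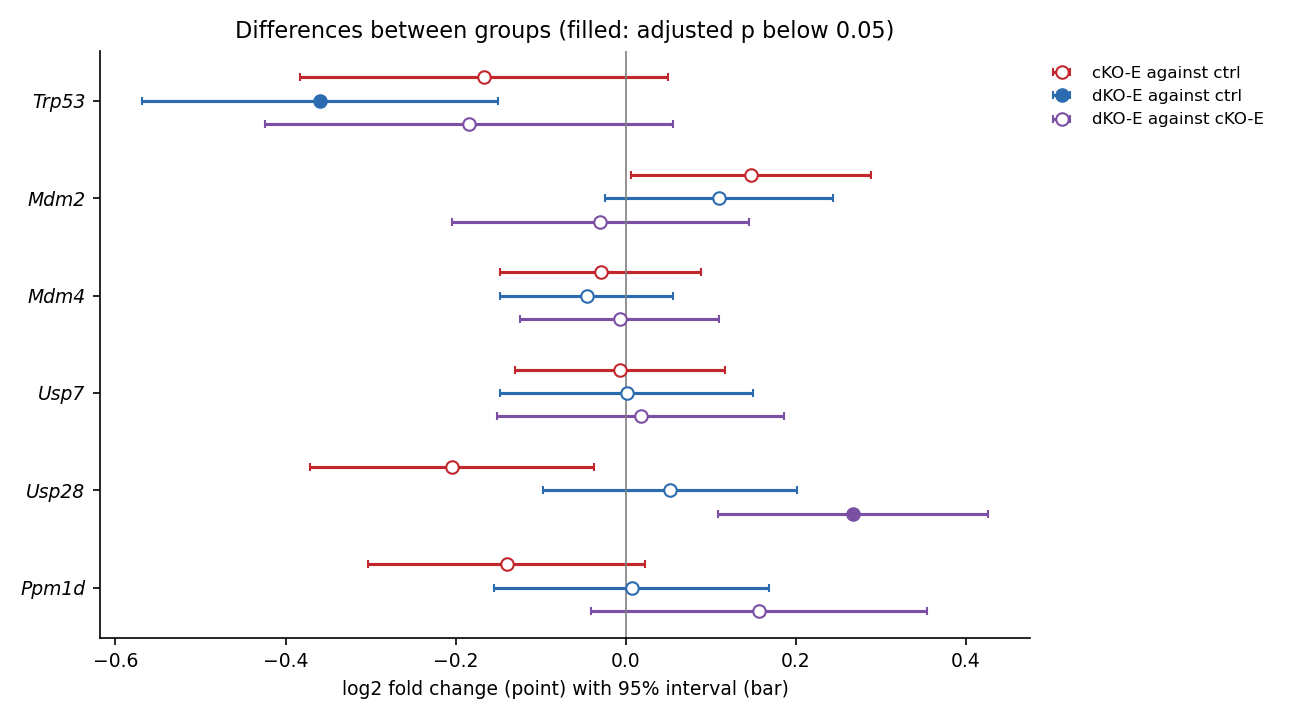
The horizontal axis is the log2 fold change of each gene with its 95% interval, in 3 colours for the 3 comparisons, and filled points passed the test. Filled points are those of *Trp53* in dKO-E against ctrl (-0.36) and *Usp28* in dKO-E against cKO-E (0.27).

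Divided by annotated exon length, the order of the levels was *Usp7*, *Mdm2*, *Ppm1d*, *Mdm4*, *Usp28* and *Trp53* in ctrl, with *Trp53* the lowest. The ctrl means were 27.0, 17.3, 16.1, 14.7, 13 and 10.9 CPM per kb. *Usp7* was above *Mdm2* in all 19 embryos, and within each group their ranges did not overlap. The ctrl ranges of every other pair of neighbours in that order overlapped, and *Mdm2* was above *Ppm1d* in 6 of 7 ctrl embryos. In cKO-E the order was unchanged, and *Ppm1d* was above *Mdm4* in 3 of 5 embryos only. In dKO-E *Usp28* was above *Trp53* in all 7 embryos, without overlap. Among 11290 genes tested in all comparisons, the ctrl mean of *Trp53* lay at percentile 63.0 and that of *Usp7* at percentile 87.6, with the other 4 between 69.1 and 77.6. The exon length joins all annotated transcripts, which lowers the value of genes with long alternative exons such as *Mdm4*, with 14798 bases.

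**Figure D4:**
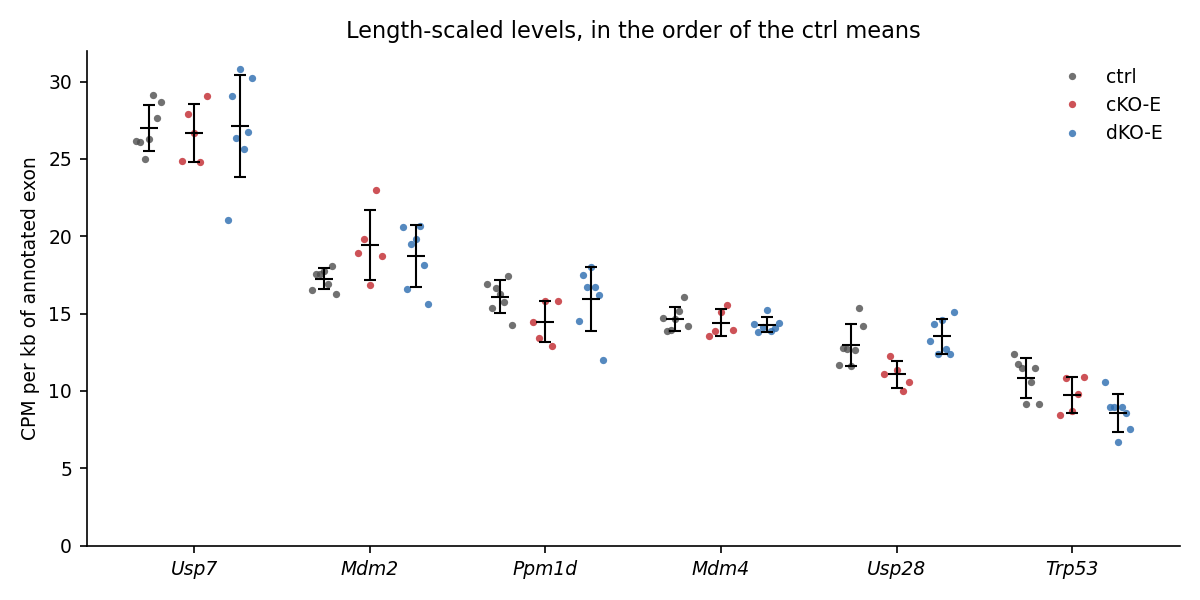
The vertical axis is CPM per kb of annotated exon from 0, points are embryos coloured by group, and bars are the mean with 1 SD. *Usp7* stands above the rest in each group and *Trp53* has the lowest mean in each group.

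The genes whose log2 CPM followed each gene most closely over the 19 libraries were sought among 11289 other genes, as a description. For *Usp28* they were *Cdca7*, a gene of cycling cells (Pearson's r = 0.87), *2810004N23Rik* (0.86) and *Anp32b*, a histone chaperone (0.85), and for *Usp7* they were *Pabpc1*, a poly(A)-binding protein (0.85), *Rps28*, a ribosomal protein (0.84), and *Mrps22*, a mitochondrial ribosomal protein (0.83). For *Mdm2* they were *Tbc1d22a* (0.83), *Ttc33* (0.80) and *Gpr176* (0.80), and for *Mdm4* they were *Gm10033* (0.79), *Phf6* (0.73) and *Imp3* (0.71). For *Trp53* they were *Rnf180* (0.77), *Pitpnc1* (0.77) and *Mtss1* (0.75), and for *Ppm1d* they were *Tada3* (0.77), *Pot1a* (0.76) and *Tesk2* (0.75). After subtraction of the group means, *Usp7* and *Pabpc1* had an r of 0.90 and *Usp28* and *Cdca7* an r of 0.72, so these pairs varied together among embryos of 1 genotype. The libraries share their depth and scaling, which can raise such values.

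The 6 genes were set beside 76 other genes that modify, bind or help p53, in 7 lists, and beside 20 p53 targets. Of the 76, 69 were tested in each comparison. In cKO-E against ctrl 2 were higher and 15 lower (24.6% of those tested, beside 17.2% of all genes), in dKO-E against ctrl 5 were higher and 11 lower (23.2%, beside 15.5%), and in dKO-E against cKO-E 6 were higher and 3 lower (13%, beside 15%). The median log2 fold changes of the 69 were -0.03, 0.00 and 0.06, where those of all genes were 0.02, 0.01 and 0.02.

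Among 12 kinases that phosphorylate p53 or lie upstream of it, 3 fell in cKO-E. In cKO-E against ctrl 25% of the 12 were called, beside 17.2% of all genes. The shares were 16.7% beside 15.5% in dKO-E against ctrl and 16.7% beside 15% in dKO-E against cKO-E. *Prkdc*, the catalytic subunit of DNA-dependent protein kinase, fell from 125 ± 13.8 CPM to 60.3 ± 6.17, with log2 fold change -1.01 (SE 0.08, adjusted p = 7.19e-07), and was at 54.0 ± 6.50 CPM in dKO-E (-1.21, SE 0.08, adjusted p = 1.07e-08). *Hipk2*, a kinase of serine residues in the p53 activation domain, fell in both mutants (-0.31 and -0.27, adjusted p = 0.000725 and 0.000936). *Aurka*, a mitotic kinase, fell in cKO-E (-0.51, SE 0.10, adjusted p = 0.0026) and was higher in dKO-E compared with cKO-E (0.54, SE 0.13, adjusted p = 0.00954). *Chek2*, a checkpoint kinase, was also higher in dKO-E compared with cKO-E (0.47, SE 0.11, adjusted p = 0.00763).

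Of 12 ubiquitin ligases of p53 other than *Mdm2*, 8.33%, 25% and 16.7% were called in cKO-E against ctrl, dKO-E against ctrl and dKO-E against cKO-E, beside 17.2%, 15.5% and 15% of all genes. *Ube4b* fell in cKO-E (-0.17, adjusted p = 0.0354), *Stub1* and *Syvn1* rose in dKO-E (0.45 and 0.37, adjusted p = 0.018 and 0.0268) and *Rchy1* fell there (-0.35, adjusted p = 0.0478). In dKO-E against cKO-E *Mkrn1* was lower (-0.34, adjusted p = 0.0131) and *Trim28* higher (0.18, adjusted p = 0.041). Of 8 deubiquitinases tested besides *Usp7* and *Usp28*, *Usp24* fell in both mutants (-0.48 and -0.62, adjusted p = 5.17e-05 and 9.08e-07), and *Usp11* and *Otud5* rose in dKO-E (0.19 and 0.23, adjusted p = 0.0469 and 0.0194). No deubiquitinase in that list was called between the mutants by edgeR's quasi-likelihood test, with log2 fold changes from -0.13 to 0.08. Of 4 phosphatases tested besides *Ppm1d*, *Ppp2r5c*, a subunit of protein phosphatase 2A, fell in both mutants (-0.21 and -0.26, adjusted p = 0.00837 and 0.00364). In the 3 comparisons, in the order above, 12.5%, 37.5% and 0% of the 8 deubiquitinases and 25%, 25% and 0% of the 4 phosphatases were called.

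Of 15 genes for acetylation and methylation of p53, 5 fell in cKO-E, among them the acetyltransferase *Ep300* (-0.40, adjusted p = 8.53e-05), the methyltransferases *Setd7* (-0.36, adjusted p = 0.000394) and *Prmt5* (-0.38, adjusted p = 0.0119), and the deacetylase *Sirt1* (-0.36, adjusted p = 0.0206). In cKO-E against ctrl 33.3% of the 15 were called, beside 17.2% of all genes. The shares were 13.3% beside 15.5% in dKO-E against ctrl and 6.67% beside 15% in dKO-E against cKO-E. *Ep300* and *Prmt5* also fell in dKO-E (-0.34 and -0.30, adjusted p = 0.000214 and 0.0339), and *Setd7* was higher in dKO-E compared with cKO-E (0.22, adjusted p = 0.027). Of 11 genes for MDM2 binding proteins tested, the ribosomal proteins *Rpl5*, *Rpl11* and *Rpl23*, which restrain MDM2 when free of ribosomes, fell in cKO-E (-0.20, -0.42 and -0.36, adjusted p = 0.0432, 0.0371 and 0.0224), as did *Numb* (-0.33, adjusted p = 0.000534). *Rpl11*, *Rpl23* and *Numb* fell in dKO-E too (-0.43, -0.33 and -0.17, adjusted p = 0.0143, 0.0484 and 0.0498). *Mtbp*, which binds MDM2, was higher in dKO-E than in ctrl (0.32, adjusted p = 0.00996) and than in cKO-E (0.36, adjusted p = 0.0155), and *Yy1*, a transcription factor that binds MDM2 and p53, was higher in dKO-E compared with cKO-E (0.19, adjusted p = 0.0381). Of the 11 genes for MDM2 binding proteins, 36.4%, 36.4% and 18.2% were called in the 3 comparisons, beside the same shares of all genes. Reads of ribosomal protein genes can be shared with their processed pseudogenes.

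Of 7 cofactors and relatives of p53 tested, *Trp73*, the p53 relative, rose in cKO-E from 14.1 ± 3.66 CPM to 27.7 ± 6.42, with log2 fold change 0.96 (SE 0.17, adjusted p = 0.00083). *Ppp1r13b*, which encodes the cofactor ASPP1, rose from 18.5 ± 3.48 to 28.6 ± 4.93 CPM (0.59, SE 0.14, adjusted p = 0.0084). Both were lower in dKO-E compared with cKO-E, at 15 ± 3.91 and 15.1 ± 3.42 CPM, with log2 fold changes of -0.88 and -0.92 (adjusted p = 0.00138 and 0.000755). *Trp53bp1*, which encodes 53BP1, the partner of USP28, fell in dKO-E (-0.25, SE 0.06, adjusted p = 0.0051). Of the 7, 28.6% were called in cKO-E against ctrl, beside 17.2% of all genes. The shares were 14.3% beside 15.5% in dKO-E against ctrl and 28.6% beside 15% in dKO-E against cKO-E.

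Of the 20 p53 targets, 10 were tested in all 3 comparisons and 7 passed the filter on low counts only in the comparisons that include cKO-E. These 7 (*Cdkn1a*, *Eda2r*, *Phlda3*, *Sesn2*, *Bbc3*, *Pmaip1* and *Tnfrsf10b*) are left out of the counts, since a high level in cKO-E helps a gene to pass there. The filter also asks for fewer libraries where cKO-E, the smallest group, is compared. The other 3, *Fas*, *Perp* and *Gdf15*, were not tested. Of the 10, 8 were called higher in cKO-E than in ctrl, where 7.31% of all genes were, and 7 were called lower in dKO-E compared with cKO-E, where 9.42% were. In dKO-E against ctrl 0 of the 10 were called, with log2 fold changes from -0.50 to 0.22, and the unadjusted p was below 0.05 for 3 of them by edgeR. DESeq2 called 0 of the 10 there and edgeR's likelihood-ratio test called 1. *Aen*, a nuclease induced by p53, rose from 36.0 ± 2.18 CPM to 82.5 ± 8.07 in cKO-E (log2 fold change 1.21, SE 0.07, adjusted p = 1.93e-08), and *Zmat3*, an RNA-binding protein induced by p53, rose from 46.4 ± 5.71 to 71.2 ± 5.52 CPM (0.65, SE 0.09, adjusted p = 6.21e-05). *Mdm2* and *Ppm1d*, which p53 is also known to induce, stood at 0.15 and -0.14 in the same comparison and were not called. Of the 2 among the 10 not called in cKO-E, the log2 fold change was -0.17 for *Btg2* (adjusted p = 0.225) and 0.24 for *Rrm2b* (adjusted p = 0.299).

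**Figure D5:**
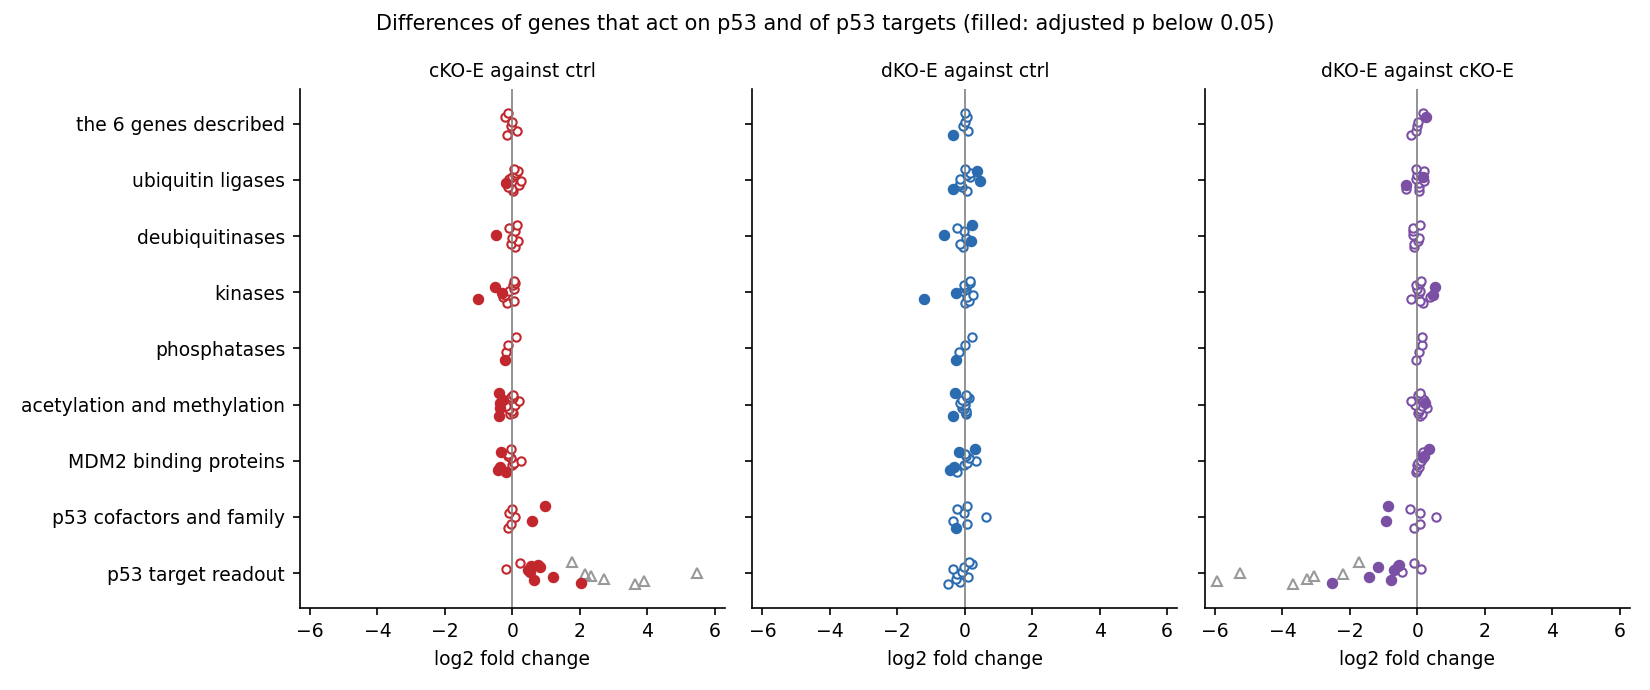
Each point is 1 gene, the horizontal axis is its log2 fold change in the comparison named above the panel, and filled points passed the test. Grey triangles are the 7 targets not tested in dKO-E against ctrl, shown with no call. The other p53 targets reach 2.03 in cKO-E against ctrl and -2.54 in dKO-E against cKO-E, while the 6 genes described stay between -0.36 and 0.27 in all 3 panels.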

How the data were processed

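RNA of E13.5 cortex was measured in 19 embryos by Click-seq after depletion of ribosomal RNA. The values the authors deposited are counts of deduplicated reads per gene, as whole numbers without normalization. Per the labels and the paper's methods, adapters were trimmed with cutadapt 1.13, reads aligned with STAR 2.5.2a to mm10, duplicates removed with UMI-tools 0.5.3, and genes counted with htseq-count of HTSeq 0.6.1p1. Whether counting used strand was not given in the sources used here. Rows that name no gene were left out of library sizes: reads on no feature were 4.96 to 12.5% of a library, ambiguous reads 1.78 to 2.07%, and reads aligned to several places 14.9 to 20.9%. Ambiguous reads of overlapping genes are not counted, which can set a gene to 0.

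Symbols and positions came from GENCODE M21 (GRCm38), in which 51719 of 51912 gene identifiers were found. Promoter sequences came from RefSeq (GRCm38.p6), where all 6 genes matched. Each pair of groups was fitted alone, without covariates, in R 4.3.3 with edgeR 4.0.16: filterByExpr at a minimum count of 10, TMM factors, the quasi-likelihood test and Benjamini-Hochberg adjustment over all genes tested. A gene was called at 0.05 in each comparison. The study used 0.001 against ctrl. The standard error is the log2 fold change divided by the square root of the F statistic. CPM used TMM factors of the filtered genes over all 19 libraries. Scripts were tested on simulated counts. Alternatives used DESeq2 1.42.0, other factors and filters, covariates, blocks, single batches and embryos left out.

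The genes, lists and threshold were chosen with earlier results of these data known. The text names the 6 genes, Ino80, genes overlapping or next to a member, the 3 genes most correlated with each, and called genes of the lists, up to 4 per list, direction and comparison by adjusted p. *Btg2*, *Rrm2b* and the markers *Emx1* and *Tbr1* were named after their values were seen. One list symbol, *Syvn1*, was misspelled at first and was corrected after the data were seen. Litter is a label: deviations from the group means of same-litter embryos correlated with a median of 0.19 over 5 pairs of ctrl and cKO-E and 0.08 over 6 pairs of ctrl and dKO-E. Total counts per library set the precision, and a member had at least 28 counts in each embryo. Figures used Python 3.11.15 with matplotlib 3.10.9.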

Additional observations from a re-analysis of the deposited data

Results flagged for a closer look

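*Usp28* stood out by a difference between the effects in the 2 mutants: its log2 fold change in dKO-E minus that in cKO-E, which is the direct comparison of the mutants, was 0.27 (SE 0.08, adjusted p = 0.0218 by edgeR's quasi-likelihood test), with all 7 dKO-E embryos above all 5 cKO-E embryos. The adjusted p ranged from 0.00901 to 0.389 over its 26 alternatives, of which 17 kept the call. Such a separation with dKO-E the higher was found for 2.43% of genes tested. With TMM factors over all genes, 5 of the 7 dKO-E embryos lay above all cKO-E embryos. The mutant groups share no litter, so genotype and litter cannot be told apart.

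Of the 18 sets of embryos, 6 genes in 3 groups, 1 held an embryo that stood apart from its group by Dixon's 95% critical value, where chance flags about 1 in 20. This was *Mdm4* in dKO-E replicate D, at 226 CPM where the other dKO-E embryos had 204 to 213 and the ctrl embryos 206 to 238. Without that embryo the log2 fold change of *Mdm4* in dKO-E against ctrl was -0.06 (adjusted p = 0.452 by edgeR).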

How the results depend on the processing

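None of the 6 genes was called in cKO-E against ctrl under any of the 27 alternatives. Some alternatives repeat a fit, so their number overstates how many separate checks were made. In the comparisons with ctrl, leaving out libraries under 1000000 counts is the same as leaving out cKO-E replicate D or dKO-E replicate G. The rate of 0.001 is the main fit at another threshold. *Trp53* in dKO-E against ctrl kept its direction in all 29 and its call in 24, and the exceptions were total counts at -0.26, the litter block at -0.38, batch 1 alone at -0.39, batch 2 alone at -0.34, and a false discovery rate of 0.001 at -0.36. The count of calls there was 0 under the last 4 of these, and was 1 with total counts, where *Mdm2* passed at 0.20. In dKO-E against cKO-E the count was 0 in place of 1 with label letters as a block, in either batch alone, at 0.001 and without the libraries under 1000000 counts. The cause was not tested. When single embryos were left out, the count stayed at 0 in cKO-E, stayed at 1 in dKO-E against ctrl and lay between 0 and 1 in dKO-E against cKO-E. *Trp53* then lay between -0.22 and -0.12 in cKO-E, between -0.40 and -0.29 in dKO-E (adjusted p 0.0109 to 0.0498 by edgeR) and between -0.24 and -0.12 between the mutants. *Mdm2* lay between 0.10 and 0.20 and between 0.09 and 0.15 in the 2 comparisons with ctrl.

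Values near 0 changed sign without passing the test. In cKO-E against ctrl, *Usp7* was 0.0223 with total counts, 0.00091 with batch as a covariate, 0.0416 with the litter block, 0.0200 in batch 1, 0.00631 without the libraries under 1000000 counts, and -0.0417 to 0.0122 with embryos left out, and *Trp53* was 0.0219 in batch 2. In dKO-E against ctrl, *Mdm4* was 0.0472 with total counts, *Ppm1d* was -0.00718 with batch as a covariate, -0.102 in batch 2 and -0.0249 to 0.0506 with embryos left out, *Usp28* was -0.0864 in batch 2, and *Usp7* was -0.0175 with sex as a covariate, -0.015 in batch 2, -0.038 with the litter block, -0.0111 without shallow libraries and -0.0347 to 0.0632 with embryos left out. Between the mutants, *Mdm2* was 0.022 with total counts, 0.0395 in batch 1, 0.0372 without shallow libraries and -0.0776 to 0.0115 with embryos left out, *Mdm4* was 0.0481, 0.0213 and 0.0133 under the same settings, 0.00762 with every counted gene and -0.0283 to 0.014 with embryos left out, *Usp7* was -0.0238 with sex as a covariate, -0.0218 without shallow libraries and -0.0174 to 0.0686 with embryos left out, and *Ppm1d* was -0.023 in batch 2.

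Whether letters shared by the labels pair embryos cannot be decided from so few pairs. In cKO-E against ctrl, dKO-E against ctrl and dKO-E against cKO-E, 1 of 4, 3 of 5 and 1 of 5 same-lettered pairs had correlated deviations above 0.1. Their median correlations were 0.023, 0.102 and 0.014, where those of other pairs were -0.0076, -0.00025 and -0.0050. With the letter as a replicate block, *Trp53* was -0.36 in dKO-E against ctrl (adjusted p = 0.0342 by edgeR), *Usp28* 0.26 between the mutants (adjusted p = 0.0653), *Mdm4* 0.0159 and *Usp7* 0.014 in cKO-E against ctrl, and *Mdm2* 0.00412 and *Usp7* -0.0163 between the mutants. Shallow libraries and 28 to 293 counts of *Trp53* per embryo limit which small differences could be detected. The litter block could not be fitted between the mutants, which share no litter.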
